A study of Mus musculus with 33 samples.

Results

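The genes described here mark B lymphocytes and the antibody-secreting plasma cells that B cells become. They were taken by name from the gene count table of a mouse liver RNA sequencing study, and all 8 were found among its 19169 genes. Of these, 6 are B cell genes (Cd79a, Cd79b, Ms4a1, Pax5, Cd22 and Blk) and 2 are plasma cell genes (Igj and Mzb1). The B cell genes were compared with the plasma cell genes across 4 groups of mice. Polyadenylated RNA of fresh frozen liver was sequenced in 33 libraries. Knock-in (KI) mice carried the tamoxifen-inducible Nlrp3 mutant genotype Nlrp3A350V/+CreT, and the other mice were wild type (WT). The diet was control chow with placebo or chow with GS-444217, an inhibitor of the kinase ASK1, for 6 weeks, and these diets are called control and ASK1i. WT mice on control chow gave 10 libraries, from 7 females and 3 males, and WT mice on the inhibitor gave 8, with 4 of each sex. KI mice on control chow gave 5 libraries, 1 of them female, and KI mice on the inhibitor gave 10, with 5 of each sex. The labels give no age, do not name the promoter that drives the inducible Cre and do not say whether WT mice received tamoxifen.

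Mature B cells recognise antigen through a surface immunoglobulin that signals through the CD79A and CD79B chains. On activation some become plasma cells, which shut down much of the B cell programme, Pax5 included, and turn to the synthesis and secretion of antibody. The liver has no B cell follicles when healthy, and its B cells lie mostly in sinusoids and portal tracts, while its plasma cells deliver polymeric IgA that hepatobiliary transport moves into bile.

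Libraries of WT mice held between 28099685 and 33572199 counts on control chow and between 30212449 and 40008114 on the ASK1i diet. Those of KI mice held between 33754743 and 38584259 and between 32245900 and 38393474. Nlrp3, the mutated gene, had a lowest, median and highest level of 1.62, 3.36 and 4.96 CPM (counts scaled to the size of the library) in WT control and 2.38, 2.63 and 3.88 CPM in WT ASK1i, against 7.87, 9.84 and 15.6 CPM in KI control and 2.10, 8.46 and 11.0 CPM in KI ASK1i. The count table has 1 row for both alleles of the gene. The library labelled KI ASK1i replicate 5 had 1.83 CPM of the neutrophil gene S100a8, where the group means were 2.36 in WT control and 522 in KI control, and it lay among the WT libraries on the first principal component. It is kept unless a sentence says otherwise. Hepatocyte transcripts were abundant in every library: the summed level of 7 hepatocyte genes was 120653 to 143435 CPM in WT control and 44645 to 68307.2 CPM in KI control. Titles also carry an L code of unstated meaning. No L code holds both genotypes on control chow, so on that diet the L code and the genotype cannot be told apart.

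RefSeq promoter sequence was matched by symbol for 4 of the 8 genes, Cd79a, Pax5, Cd22 and Igj (as Jchain), in GRCm38.p6, the same assembly as mm10. The 250 bases before each start were searched on both strands for motifs of B cell transcription factors. These were the octamer ATGCAAAT, bound by Oct proteins, an EBF-type palindrome made of TCCC, any 2 bases and GGGA, and that palindrome's core CCCNNGGG. The search covered all of those bases. The stretches printed below are the parts of them outside annotated exons, so those of Cd79a and Cd22 are shorter than the window searched. They are written along the gene's strand and are shown because Cd79a was lower and Igj higher in KI than in WT liver on the ASK1i diet, and because Cd22, the B cell gene that moved least, held a match. Capitals mark the EBF-type palindrome.
Cd79a, chr7:24897247-24897380, plus strand: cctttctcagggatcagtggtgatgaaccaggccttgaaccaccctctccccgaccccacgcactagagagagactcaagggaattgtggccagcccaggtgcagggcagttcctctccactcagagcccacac
Cd22, chr7:30879029-30879176, minus strand: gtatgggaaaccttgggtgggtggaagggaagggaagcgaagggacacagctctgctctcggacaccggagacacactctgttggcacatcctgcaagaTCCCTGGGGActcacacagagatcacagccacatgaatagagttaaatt
Igj, chr5:88527898-88528147, minus strand: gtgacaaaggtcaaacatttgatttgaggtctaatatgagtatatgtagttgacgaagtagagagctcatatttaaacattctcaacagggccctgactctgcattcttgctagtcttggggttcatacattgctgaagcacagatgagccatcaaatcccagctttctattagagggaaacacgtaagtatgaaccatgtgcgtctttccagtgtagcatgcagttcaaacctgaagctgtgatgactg
The EBF-type palindrome occurred 1 time in these windows, as TCCCTGGGGA in Cd22 at position -49 from the RefSeq start. It occurs in 0.779% of 32851 promoter windows of that length, its core in 11.8% and the octamer in 1.6%. The core's 1 match lay inside the Cd22 palindrome, and the octamer's letters were in none of the 4 windows. The RefSeq start of Cd22 lies inside the span that the count table gives for the gene, which extends to position 30880342. A match is a description of these letters only. Sites that differ from them, such as imperfect palindromes, were not searched for and are not marked.

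In WT control liver the receptor chains and the joining chain were the most abundant of these transcripts and Pax5 the scarcest. In this paragraph levels are compared between genes as CPM per kilobase of transcript. On that scale Cd79b and Cd79a, the signalling chains of the B cell receptor, had means of 3.23 and 2.51, and Igj, the joining chain of polymeric IgA and IgM, had 2.39 ± 0.918 (SD, n = 10). Cd22, an inhibitory co-receptor of the B cell receptor, had 1.14 ± 0.350. Ms4a1, which encodes the surface protein CD20, and Blk, a Src-family kinase of the receptor pathway, both had 0.535, with SDs of 0.191 and 0.246. Mzb1, an endoplasmic reticulum protein of antibody assembly, had 0.340 ± 0.160, and Pax5, the transcription factor of B cell identity, had 0.0450 ± 0.0250. Neighbours in this order lay within the larger SD of the pair except at the steps from Igj to Cd22, from Cd22 to Ms4a1 and from Mzb1 to Pax5. In KI control liver Igj stood first with 4.27 ± 0.965 CPM per kilobase, Cd79b had 1.17 and Cd79a 0.427.

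On control chow, 5 of the 6 B cell genes were lower in KI than in WT liver, from 2.24-fold for Cd79b to 5.44-fold for Pax5, and Cd22 differed little. Both plasma cell genes had higher means in KI, and neither passed the test. Over all genes, 56.7% of those tested were called in this comparison and 28.9% were called lower, against 5 of the 8 described here, all of them lower. The median log2 fold change was -2.14 over the 6 B cell genes, 0.82 over the 2 plasma cell genes and -0.03 over the 14934 genes tested. In bulk tissue, fewer cells of a type and less RNA per cell cannot be told apart.

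**Figure D1:**
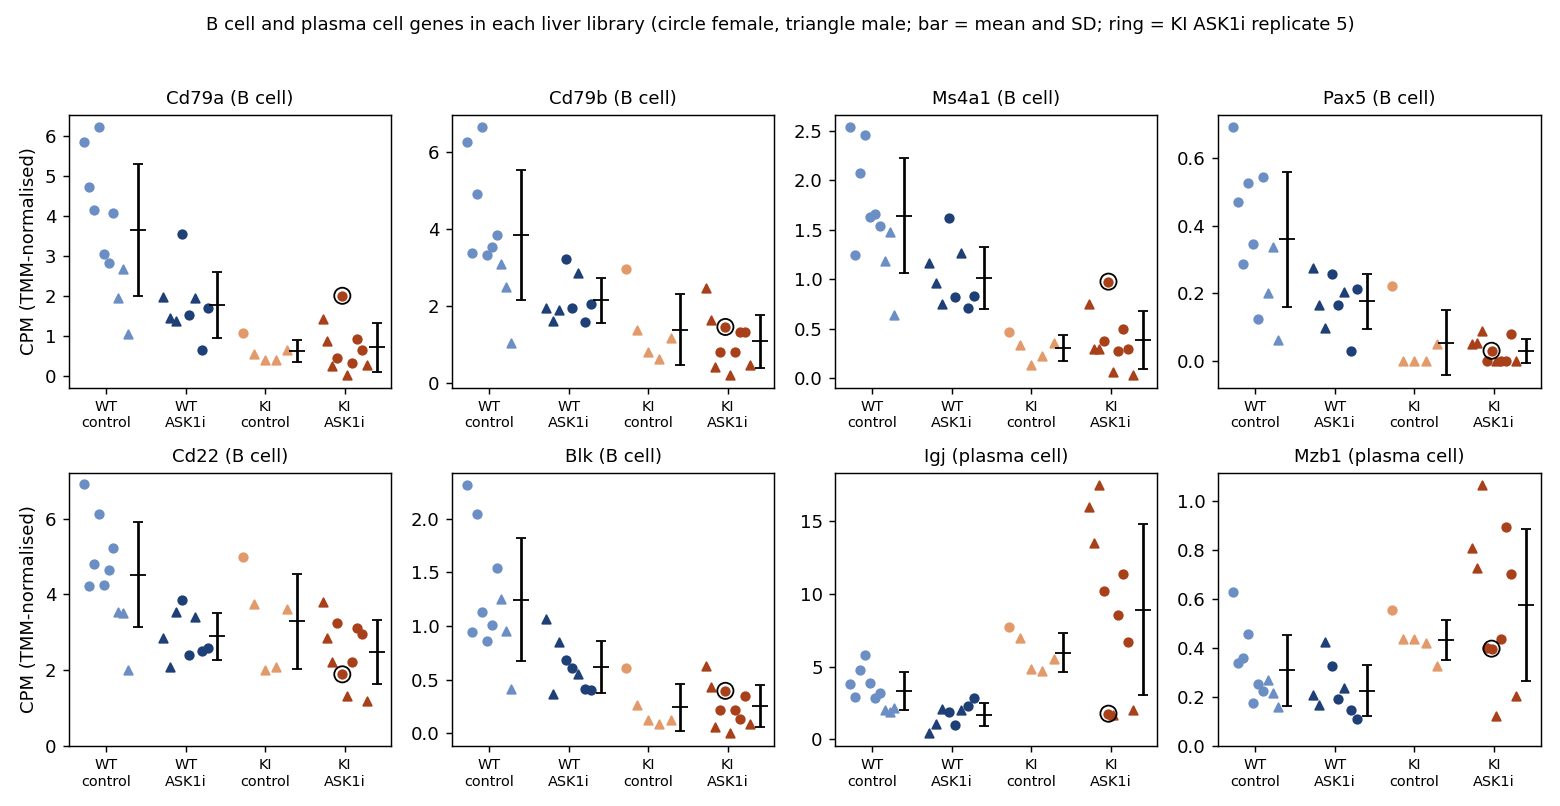
Level of each gene in CPM (vertical axes, linear, from 0) in every library of the 4 groups; circles are female, triangles male, bars the mean and SD, and the ringed point is KI ASK1i replicate 5. The Cd79a mean was 3.66 CPM in WT control and 0.622 CPM in KI control, while the Igj mean was 3.33 CPM and 5.95 CPM.

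Of the receptor chains, Cd79a (Entrez gene 12518, chr7:24897510-24902197) had a lowest, median and highest level of 1.05, 3.55 and 6.23 CPM in the 10 WT control libraries. In the 5 KI control libraries it had 1.08, 0.555, 0.410, 0.417 and 0.649 CPM. All KI libraries lay below the WT mean and 4 of 5 lay below every WT library, at a log2 fold change of -2.15 (SE 0.47, edgeR adjusted p = 0.000265). Cd79b (15985, chr11:106311340-106314529) had 1.05, 3.46 and 6.65 CPM in WT control and 2.96, 1.37, 0.820, 0.640 and 1.17 CPM in KI control. The groups overlapped more here, with 2 of 5 KI libraries below every WT library, and the log2 fold change was -1.16 (SE 0.38, edgeR adjusted p = 0.01).

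Ms4a1 (12482, chr19:11250602-11266151) was the only one of the 8 genes whose groups did not overlap on control chow; over all genes tested, 12.8% were lower without overlap. Its lowest, median and highest WT control values were 0.636, 1.58 and 2.54 CPM. The KI control values were 0.470, 0.338, 0.128, 0.223 and 0.349 CPM, and the log2 fold change was -2.14 (SE 0.42, edgeR adjusted p = 7.73e-05).

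Blk (12143, chr14:63372836-63417187) had 0.413, 1.07 and 2.31 CPM as lowest, median and highest WT control values. In KI control it had 0.608, 0.265, 0.128, 0.0835 and 0.125 CPM, and 4 of 5 libraries lay below every WT library. The log2 fold change was -2.21 (SE 0.49, edgeR adjusted p = 0.00037). Pax5 (18507, chr4:44531505-44710440) rested on few reads, with 108 counts over the 10 WT control libraries and 10 over the 5 KI control libraries. Of those counts, 8 came from replicate 1 and 2 from replicate 1P, and the other KI control libraries had 0. Its log2 fold change was -2.44 (SE 0.69, edgeR adjusted p = 0.00359), with 5 of 5 libraries below the WT mean. Without KI control replicate 1 it was -4.16, and with the L code in place of the title set it was -1.97 (adjusted p = 0.167).

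Cd22 (chr7:30865403-30880342) had 2.00, 4.45 and 6.93 CPM as lowest, median and highest values in WT control. In KI control it had 5.00, 3.74, 2.00, 2.09 and 3.62 CPM, with 1 of 5 just below every WT library and 4 of 5 below the WT mean. The log2 fold change was -0.23, with a 95% interval from -0.70 to 0.24 (edgeR adjusted p = 0.423). The intervals of Cd79a, Ms4a1, Pax5 and Blk lay wholly below that of Cd22, and that of Cd79b overlapped it; the difference between genes was not tested.

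Of the plasma cell genes, Igj (16069, chr5:88519808-88527897) had 1.90, 3.05 and 5.84 CPM as lowest, median and highest WT control values. In KI control it had 7.71, 7.00, 4.84, 4.67 and 5.52 CPM. All 5 lay above the WT mean, and 2 of 5 lay above every WT library. The log2 fold change was 1.04 (SE 0.46, 95% interval 0.14 to 1.94, unadjusted p = 0.0311, edgeR adjusted p = 0.0543), and DESeq2 gave an adjusted p of 0.0319. Leaving out 1 library at a time, Igj was called in 7 of 33 fits, with an edgeR adjusted p from 0.02 without KI ASK1i replicate 5 to 0.118 without KI control replicate 1. Mzb1 (69816, chr18:35647264-35649367) had 0.159, 0.260 and 0.627 CPM in WT control and 0.553, 0.434, 0.436, 0.417 and 0.325 CPM in KI control. All KI values lay inside the WT range and above its mean, and the log2 fold change of 0.60 (95% interval -0.15 to 1.34) did not pass the test (edgeR adjusted p = 0.186).

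The sexes were unequal on control chow. Within males the ranges were apart for 6 of the 8 genes, Cd79a, Ms4a1, Pax5 and Blk lower and Igj and Mzb1 higher in KI, against 24.3% of all genes lower and 24.6% higher without overlap. Cd79b and Cd22 overlapped. Cd79a lay from 1.05 to 2.67 CPM in 3 WT males and from 0.410 to 0.649 CPM in 4 KI males. Igj lay from 1.90 to 2.13 CPM in WT males and from 4.67 to 7.00 CPM in KI males. The WT control females stood higher for both genes, from 2.83 to 6.23 CPM for Cd79a and from 2.83 to 5.84 CPM for Igj. The single KI control female had 1.08 CPM of Cd79a and 7.71 CPM of Igj. In males alone the tests called 3 of the 7 genes fitted, where 41.9% of all genes were called, and Cd79b was no longer among them (log2 fold change -1.25, edgeR adjusted p = 0.14). In females alone they called 1 of 8, Ms4a1, where 23.8% of all genes were called.

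On the ASK1i diet Cd79a, Cd79b, Ms4a1, Pax5 and Blk were again lower in KI than in WT liver, and both plasma cell genes were higher. Igj was 5.37-fold and Mzb1 2.74-fold higher, and the B cell genes called were from 1.84-fold (Cd79b) to 4.82-fold (Pax5) lower. Over all genes 59.1% were called, 28.8% lower and 30.3% higher, against 5 lower and 2 higher of the 8. The median log2 fold change was -1.19 over the B cell genes, 1.94 over the plasma cell genes and 0.01 over all genes tested. No gene of the 8 had groups without overlap; over all genes 3.91% were lower and 2.36% were higher without overlap.

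**Figure D2:**
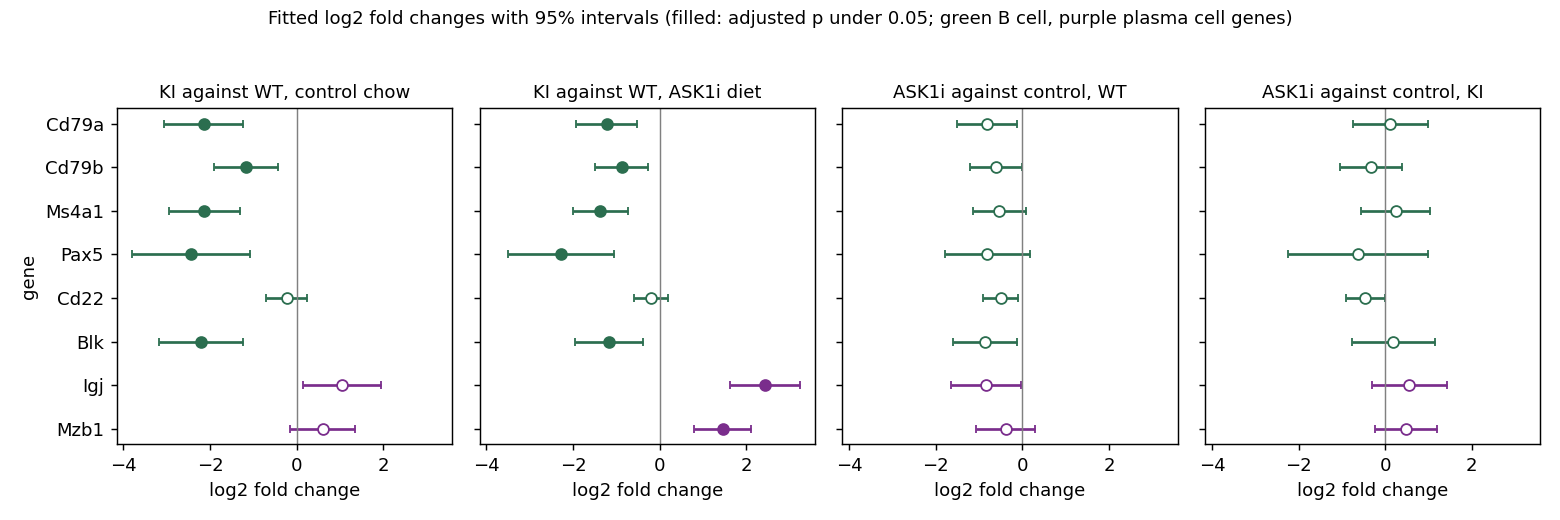
Log2 fold change (horizontal axis) of each gene in the 4 comparisons, with 95% intervals; filled points passed an edgeR adjusted p of 0.05, B cell genes are green and plasma cell genes purple. In KI against WT the B cell genes other than Cd22 lie below 0 on both diets, Igj lies at 1.04 and 2.42, and no point is filled in either diet comparison.

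Igj had 0.412, 1.93 and 2.82 CPM as lowest, median and highest values in WT ASK1i and 1.65, 9.38 and 17.5 CPM in KI ASK1i. In KI, 7 of 10 libraries lay above every WT library and 9 of 10 above the WT mean, at a log2 fold change of 2.42 (SE 0.41, edgeR adjusted p = 1.04e-05). Mzb1 had 0.107, 0.199 and 0.424 CPM in WT ASK1i and 0.122, 0.568 and 1.07 CPM in KI ASK1i. In KI, 6 of 10 lay above every WT library, and the log2 fold change was 1.45 (SE 0.33, edgeR adjusted p = 0.000413).

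Cd79a had 0.649, 1.63 and 3.56 CPM in WT ASK1i and 0.0306, 0.554 and 2.01 CPM in KI ASK1i, where 2.01 CPM was replicate 5. The groups overlapped, with 6 of 10 KI libraries below every WT library and 9 of 10 below the WT mean. The log2 fold change was -1.21 (SE 0.36, edgeR adjusted p = 0.00457). Ms4a1 had 0.708, 0.897 and 1.62 CPM in WT and 0.0290, 0.296 and 0.975 CPM in KI, with 10 of 10 below the WT mean. Its log2 fold change was -1.36 (SE 0.32, edgeR adjusted p = 0.000562).

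Cd79b ranged from 1.59 to 3.23 CPM in WT ASK1i and from 0.214 to 2.47 CPM in KI ASK1i, with 8 of 10 KI libraries below every WT library (log2 fold change -0.88, edgeR adjusted p = 0.0158). Without WT ASK1i replicate 7 the edgeR adjusted p of Cd79b was 0.0503. Blk ranged from 0.365 to 1.06 CPM and from 0 to 0.623 CPM, with 7 of 10 below (log2 fold change -1.16, edgeR adjusted p = 0.0131). Pax5 had 46 counts over 8 WT libraries and 11 over 10 KI libraries, of which 5 had 0 (log2 fold change -2.27, edgeR adjusted p = 0.00254, 10 of 10 below the WT mean). Cd22 again differed least, with 2.09 to 3.85 CPM in WT and 1.19 to 3.79 CPM in KI. Its log2 fold change was -0.19 (95% interval -0.58 to 0.20, edgeR adjusted p = 0.427).

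Leaving out KI ASK1i replicate 5 left the number of genes called at 7, where 63.2% of all genes were called. Igj was then at 2.57 and Cd79a at -1.41. The L code had more effect. With it in place of the title set, 4 genes passed, where 55.8% of all genes were called, and the log2 fold changes of Cd79a (-0.88, edgeR adjusted p = 0.0912), Cd79b (-0.49, adjusted p = 0.256) and Blk (-0.73, adjusted p = 0.196) did not. Within L1, 2 WT and 4 KI ASK1i libraries can be set side by side. There Ms4a1 was 0.708 and 0.832 CPM in WT and 0.0290 to 0.499 CPM in KI. Cd79b was 1.59 and 2.07 CPM in WT and 0.464 to 1.34 CPM in KI. Blk was 0.402 and 0.413 CPM in WT and 0.0870 to 0.349 CPM in KI. Mzb1 was 0.107 and 0.147 CPM in WT and 0.203 to 0.894 CPM in KI. The share of all genes that lay apart within L1 was not counted. Cd79a overlapped within L1, at 0.649 and 1.72 CPM in WT and 0.290 to 0.920 CPM in KI. So did Igj, at 2.33 and 2.82 CPM in WT and 2.00 to 11.4 CPM in KI, and so did Pax5 and Cd22. Within L7 the 1 KI library had 16.0 CPM of Igj against 0.988 and 1.99 CPM in WT, and 1.43 CPM of Cd79a against 1.54 and 1.96 CPM. In that library Blk (0.623 CPM) and Cd22 (3.79 CPM) lay above both WT libraries and Cd79b (2.47 CPM) lay between them. In males alone 3 of the 7 genes fitted passed, Ms4a1 lower and both plasma cell genes higher, where 48.9% of all genes were called. In females alone 5 of 8 passed, where 36.9% of all genes were called; Cd79a (edgeR adjusted p = 0.0956) and Blk (adjusted p = 0.0775) did not. With the numbered titles alone 5 of 8 passed, where 47.2% of all genes were called; Cd79b (adjusted p = 0.0833) and Blk (adjusted p = 0.0671) did not.

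In the diet comparisons none of the 8 genes passed the test. Within WT, edgeR called 0 of 8, with 3 at an unadjusted p under 0.05, and DESeq2 and limma-voom also called 0; over all genes 1.4% were called, 0.268% lower and 1.13% higher. All 8 means were lower on the ASK1i diet. The log2 fold change was -0.82 (SE 0.35, edgeR adjusted p = 0.285) for Cd79a, -0.50 (SE 0.20, adjusted p = 0.244) for Cd22 and -0.83 (SE 0.41, adjusted p = 0.366) for Igj. All 8 WT ASK1i libraries lay below the WT control mean for every gene but Mzb1, where 6 of 8 did, and the ranges overlapped for all 8 genes (over all genes 0.0201% were lower and 0.241% higher without overlap). Within sex this differed. In females Cd79b, Cd22, Blk and Igj were lower without overlap on the ASK1i diet (7 against 4 libraries; 2.69% of all genes). In males no gene of the 8 was apart, and for Cd79a, Ms4a1, Pax5 and Cd22 2 of 4 ASK1i libraries lay below the control mean and 2 above it.

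Within KI, edgeR called 0 of 8, with 0 at an unadjusted p under 0.05, and DESeq2 and limma-voom called 0; over all genes 0.0536% were called, all of them lower. No gene of the 8 had groups without overlap, against 0.067% lower and 0.0268% higher over all genes. Igj had a log2 fold change of 0.55 (SE 0.44, edgeR adjusted p = 0.627), Mzb1 0.48 (SE 0.36, adjusted p = 0.609) and Cd79a 0.12 (SE 0.44, adjusted p = 0.936). The spread within KI ASK1i was wide: Igj had 8.93 ± 5.87 CPM (SD, n = 10) there and 5.95 ± 1.34 CPM (n = 5) in KI control. In the interaction of genotype and diet, edgeR called 0 of 8 and 0% of all genes, and DESeq2 and limma-voom called 0 of 8. Igj alone had an unadjusted p under 0.05, with a log2 difference of 1.39 (SE 0.61, unadjusted p = 0.0302, edgeR adjusted p = 0.567).

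Within single libraries the balance between B cell and plasma cell transcripts differed with genotype. The ratio given here was not scaled to transcript length, so it is compared only between libraries. The ratio of Igj to Cd79a CPM had a median of 0.969 (range 0.621 to 2.03) in WT control and 0.871 (0.207 to 3.59) in WT ASK1i. In KI control it had a median of 11.2 (7.15 to 12.6), and in KI ASK1i of 13.8 (0.879 to 65.7). The KI control range lay wholly above both WT ranges. The lowest KI ASK1i value, 0.879, was replicate 5, and the highest, 65.7, was replicate 3 with 591 counts of Igj and 9 of Cd79a. KI ASK1i replicate 6 also rested on few reads, with 54 counts of Igj and 1 of Cd79a.

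**Figure D3:**
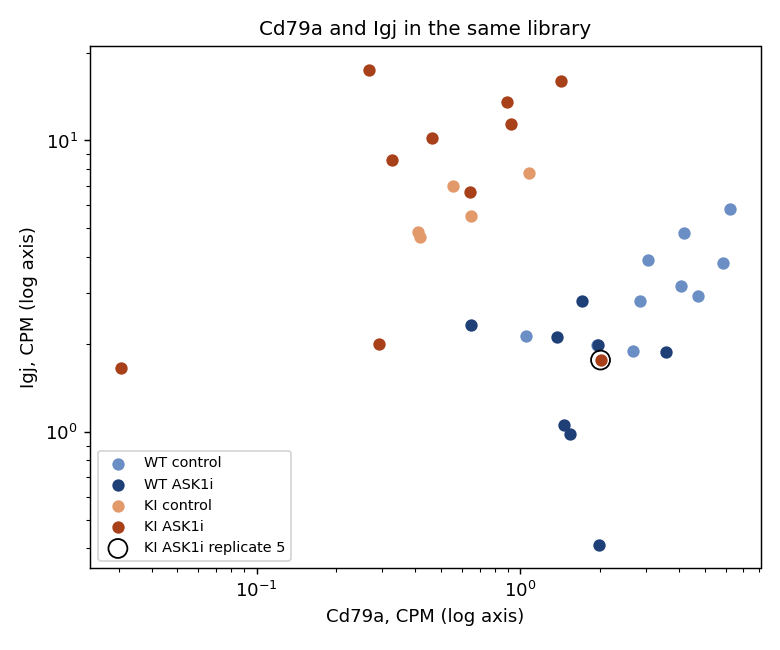
Igj level (vertical axis, CPM, log scale) against Cd79a level (horizontal axis, CPM, log scale), 1 point per library, coloured by group, with KI ASK1i replicate 5 ringed. The 5 KI control libraries, with 4.67 to 7.71 CPM of Igj, lie at the upper left, and the ringed library lies among the WT libraries with 2.01 CPM of Cd79a and 1.77 CPM of Igj.

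The mean of both plasma cell genes minus the mean of the 6 B cell genes, on the log2 CPM scale, was also higher in KI than in WT libraries. It was -0.80 ± 0.34 (SD, n = 10) in WT control and -0.73 ± 0.62 (n = 8) in WT ASK1i. KI control libraries had 1.70 ± 0.49 (n = 5), and KI ASK1i libraries had 2.05 ± 0.86 (n = 10). The highest WT value was 0.0534, the lowest KI value was 0.19 (replicate 5) and the next lowest was 0.99 (KI control replicate 1). Because the genes were chosen with earlier results known, no test is given for this difference. It was not scaled to transcript length either, so it is compared only between libraries. KI ASK1i replicates 6 and 4P were low for both kinds of gene, with 1 and 10 counts of Cd79a and 1.65 and 2.00 CPM of Igj.

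Across the 18 WT libraries, which pool 2 diets and both sexes with different mean levels, the B cell genes were correlated. Pearson's r with Cd79a on the log2 CPM scale was 0.91 for Cd79b, Ms4a1 and Pax5, 0.88 for Cd22 and 0.75 for Blk. Spearman's rho was 0.95, 0.90, 0.88, 0.88 and 0.74 in that order. Permutation p-values adjusted over the 7 relations ran up to 0.000462 for r and 0.000882 for rho in these 5 genes. The plasma cell genes followed less closely, with r = 0.67 and rho = 0.68 for Mzb1 (adjusted permutation p = 0.00268 and 0.00318) and r = 0.52 and rho = 0.59 for Igj (adjusted permutation p = 0.0252 and 0.0114). Without the 2 libraries farthest from the Cd79a median, r was 0.91 for Cd79b, 0.75 for Blk, 0.59 for Mzb1 and 0.54 for Igj.

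Within 1 diet or sex r with Cd79a was 0.81 or more for Cd79b, Ms4a1 and Pax5, and it was lower for the other genes in some subsets. In the 8 WT ASK1i libraries r was 0.55 for Cd22, 0.40 for Blk, 0.38 for Mzb1 and -0.19 for Igj. In the 7 WT males it was 0.68 for Cd22 (rho 0.29), 0.63 for Blk, 0.09 for Mzb1 and -0.18 for Igj. In WT control r was 0.78 for Mzb1 and 0.75 for Igj, both above the 0.72 of Blk. In the 11 WT females r was 0.80 for Mzb1, 0.79 for Blk and 0.59 for Igj. The plasma cell genes thus did not follow less closely than every B cell gene in each subset. Across the 15 KI libraries r with Cd79a was 0.90 for Cd79b, 0.83 for Ms4a1 and 0.85 for Blk. There it was 0.60 for Cd22, 0.41 for Pax5, 0.56 for Mzb1 and 0.31 for Igj, given as values with no test.

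By rank correlation over the 18 WT libraries among 12190 genes, the 5 genes most like Cd79a included Clec2i (rho 0.963), Btla (0.934), Cluap1 (0.924) and Il20rb (0.920). In KI against WT on control chow they did not all go the way of Cd79a: the log2 fold change was -0.99 for Btla and -0.44 for Cluap1, but 0.75 for Clec2i and 0.72 for Il20rb. The row of antibody gene parts (rho 0.897), Gimap3 (0.895), a row of an immunoglobulin A heavy chain (0.856) and Kbtbd11 (0.849) were among the 5 most like Igj.

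Of 28 further B cell genes, 24 were tested, and on control chow 12 were lower and 8 higher in KI. Their median log2 fold change was -0.81, against -0.03 over all genes. Over all genes 28.9% were called lower and 27.8% higher there, so the count of higher genes lay near its share over all genes. On the ASK1i diet 10 of the 24 were lower and 7 higher, with a median of -0.43 against 0.01. There 28.8% of all genes were called lower and 30.3% higher. With the L code in place of the title set 3 were lower and 5 higher on control chow, where 34.2% of all genes were called. On the ASK1i diet 8 were then lower and 7 higher, where 55.8% of all genes were called.

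The genes with the smallest p in that list were higher. Which cells carried the transcripts of this list, those that rose or those that fell, was not tested. On control chow 16.3% of all genes tested were higher in KI without overlap. Ly6d, a marker of early B lineage commitment that epithelia also express, rose from 3.31 CPM in WT control to 82.4 CPM in KI control (log2 fold change 5.25, SE 0.65, edgeR adjusted p = 1.29e-07, 5 of 5 above every WT library). Cd72 (1.96), Cd37 (1.67), a tetraspanin of leukocytes, and Pou2f2 (1.44), the Oct-2 factor, also rose on control chow, with edgeR adjusted p up to 3.71e-06. Genes named after their values were seen were lower: Fcer2a, the low-affinity IgE receptor of mature B cells (-2.83), Tnfrsf13c, the receptor of the survival factor BAFF (-2.15), Faim3, an IgM receptor (-2.06), Ebf1, an early B lineage transcription factor (-1.69), and Spib, an Ets-family factor of B cells (-1.51). Their edgeR adjusted p ran up to 0.00646 on control chow. On the ASK1i diet Fcer2a was -2.39 and Faim3 -2.06, while Tnfrsf13c at -0.93 did not pass (edgeR adjusted p = 0.0875).

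Of 14 further plasma cell genes, 13 were tested, and on control chow 4 were higher and 0 lower, with a median log2 fold change of 0.19. That share is near the 27.8% of all genes called higher there. On the ASK1i diet 9 were higher and 1 lower, with a median of 0.77, where 30.3% of all genes were called higher. With the L code the counts were 2 higher on control chow and 7 higher on the ASK1i diet, with 0 lower in both. Which cells carried the transcripts of this list was not tested. On control chow 16.3% of all genes tested were higher in KI without overlap. Prdm1, the factor that drives plasma cell differentiation, was higher by 2.30 on control chow (SE 0.28, edgeR adjusted p = 9.67e-08, 5 of 5 above every WT library) and by 1.40 on the ASK1i diet (SE 0.25, adjusted p = 2.12e-05, 9 of 10). Irf4, which acts with it, was higher by 0.98 (adjusted p = 0.00189) and 0.77 (adjusted p = 0.00315), and Slamf7, a surface receptor of plasma cells and NK cells, by 1.19 (adjusted p = 0.006) and 0.96 (adjusted p = 0.0138). Xbp1, the factor of the secretory expansion that hepatocytes also express strongly, had 182 CPM in WT control and 311 CPM in KI control (log2 fold change 0.80, adjusted p = 3.42e-05), and 155 CPM and 361 CPM on the ASK1i diet (1.19, adjusted p = 7.59e-09).

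**Figure D4:**
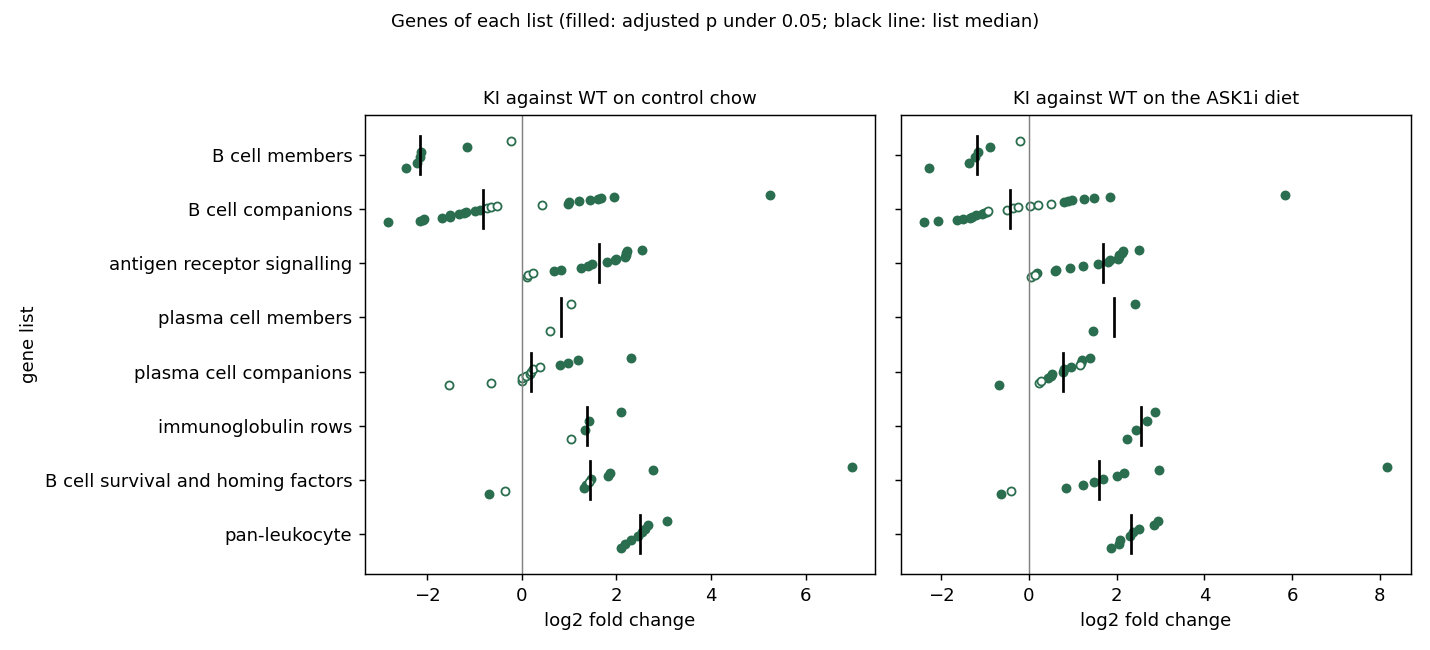
Log2 fold change of KI against WT (horizontal axis) for each tested gene of the marker and pathway lists, with 1 panel per diet; filled points passed an edgeR adjusted p of 0.05 and lines are list medians. The lists shown are the B cell, plasma cell, immunoglobulin, antigen receptor, survival and homing factor and pan-leukocyte genes. The further B cell genes spread to both sides of 0 with medians of -0.81 and -0.43, and the pan-leukocyte genes have medians of 2.49 and 2.34.

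Rows for immunoglobulin loci were looked at after their values were seen. They gather many near-identical gene copies, so their counts are uncertain one by one, and 4 of 5 were tested. On control chow 16.3% of all genes tested were higher in KI without overlap. The Igh row had a mean of 8.17 CPM in WT control and 29.2 ± 11.8 CPM (SD, n = 5) in KI control (log2 fold change 2.10, SE 0.55, edgeR adjusted p = 0.00179, 5 of 5 above every WT library). On the ASK1i diet its means were 4.17 CPM and 29.9 ± 26.8 CPM (n = 10; log2 fold change 2.88, SE 0.52, edgeR adjusted p = 2.61e-05, 7 of 10). The row of antibody gene parts went from 36.7 CPM in WT control to 79.7 ± 20.6 CPM in KI control (log2 fold change 1.33, SE 0.38, edgeR adjusted p = 0.00381, 5 of 5). A row of the IgG heavy chain was 1.05 on control chow (edgeR adjusted p = 0.384) and 2.44 on the ASK1i diet (adjusted p = 0.0221).

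Of 16 genes of antigen receptor signalling, shared by several leukocyte types, 13 rose and 0 fell on control chow, with a median log2 fold change of 1.64. Over all genes 27.8% were called higher and 28.9% lower on that diet, and 16.3% were higher without overlap between the groups. The kinases Lyn (1.41) and Syk (1.96), the phosphatase gene Inpp5d and the exchange factor Vav1 (2.20) were above every WT library in 5 of 5. Blk, of the same Src family as Lyn, was at -2.21 in that comparison. A further list held factors that attract B cells or keep them and plasma cells alive, and receptors of such factors, Tnfrsf17 and Cd40. Of its 10 tested genes, 7 rose and 1 fell on control chow. The summed level of the 14 genes of that list that were measured had a lower median in KI, and the ranges overlapped. Its lowest, median and highest values were 232, 329 and 416 CPM in WT control and 188, 255 and 270 CPM in KI control. Tnfsf13, which encodes the plasma cell survival factor APRIL, rose by 1.86 (SE 0.26, edgeR adjusted p = 9.52e-07), Ltb, a lymphotoxin chain, by 2.77 (adjusted p = 2.03e-06) and the chemokine gene Ccl19 by 1.82 (adjusted p = 5.97e-05). Named after its value was seen, Tnfsf13b, which encodes BAFF, rose by 1.46 (adjusted p = 0.000732). Ccl20 had means of 0.00628 CPM in WT control, 0 in WT ASK1i, 1.27 in KI control and 1.01 in KI ASK1i.

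Pan-leukocyte and neutrophil genes rose in KI liver, where most of the B cell genes were lower. Erythroid genes did not: of 5 tested, 0 rose and 2 fell on control chow, with a median log2 fold change of -0.74. On the ASK1i diet 1 of them rose and 3 fell, with a median of -0.76. All 8 pan-leukocyte genes rose in KI on both diets, and their summed level was 57.6 to 146 CPM in WT and 381 to 641 CPM in KI libraries on control chow, and 68.7 to 105 CPM in WT and 94.0 to 739 CPM in KI libraries on the inhibitor, with no gene at 0 throughout a group. Ptprc, the common leukocyte antigen CD45, rose by 2.18 (SE 0.25, edgeR adjusted p = 3.44e-08) on control chow and 2.08 (SE 0.22, adjusted p = 8.45e-09) on the ASK1i diet. All 10 neutrophil genes rose on both diets, from a summed 6.33 to 23.3 CPM in WT control to 694 to 3559 CPM in KI control. Their part in the results above was not tested. The 6 B cell genes summed to 5.21 to 24.6 CPM in WT control and 3.45 to 10.3 CPM in KI control, and the 2 plasma cell genes to 2.12 to 6.30 CPM and 5.09 to 8.26 CPM.

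Plasmacytoid dendritic cells share several transcripts with B and plasma cells. Of 11 of their genes, 6 rose and 0 fell on control chow, with a median log2 fold change of 0.66, and 5 rose and 2 fell on the ASK1i diet. Over all genes 27.8% were called higher and 28.9% lower on control chow, and 30.3% and 28.8% on the ASK1i diet. Siglech, which defines these cells and was named after its values were seen, was at -0.63 on control chow, which did not pass the test, and fell by 1.29 on the ASK1i diet (SE 0.42, edgeR adjusted p = 0.0095). Of 14 T cell genes, 5 rose and 1 fell on control chow. Of 5 tested genes of B cell precursors, 1 rose on control chow and 2 rose on the ASK1i diet, and 0 fell in either. The T cell and precursor counts that rose lie near the shares over all genes and are given as values only. Among precursor genes in the table, Igll1 had 0 counts in all WT control and all KI control libraries. Vpreb2 had 0 counts in all WT ASK1i, KI control and KI ASK1i libraries. Rag1 and Rag2 had no row under those names in the count table, so they were not analysed.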

How the data were processed

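Liver RNA was sequenced in 33 libraries. Whether each came from its own mouse is not in the labels, so the p-values cover only the variation among the libraries, which may be technical. The deposited table holds RSEM expected counts per gene, not normalised. The submitters' processing notes name CASAVA 1.8.2, STAR 2.4, RSEM 1.2.14 and the build mm10, with settings, strand use and annotation not given in the sources used here. Per the labels' protocols, the kits were Qiagen miRNeasy and TruSeq Stranded mRNA. RSEM shares out reads that map to several genes.

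Group, sex and replicate number were read from the labels. Expected counts were rounded and fitted with edgeR 4.0.16 in R 4.3.3 (TMM, filterByExpr by group, quasi-likelihood F test, robust) in 1 model of group, sex and title set over all libraries. The filter left 14934 genes, all 8 described here among them. Benjamini-Hochberg adjustment was done over those genes separately for each comparison. The threshold was 0.05 and tests were two-sided. Reported log2 fold changes use edgeR's prior count of 0.125, and log2 CPM a prior count of 2. CPM per kilobase divides by the longest GENCODE transcript matched through the table's RefSeq accession. Correlations used 1e+05 permutations. SEs come from the model, and 95% intervals are normal intervals from the SE. A check of 128 pairs within groups found no library deposited in duplicate (lowest chi-square per gene 24.0). The fits were tested on simulated data.

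Genes and lists were chosen with earlier results of these data known. The rule for naming took the 8 genes and Nlrp3, from each list up to 4 genes with the smallest p on control chow, Ptprc, and the 5 genes most like Cd79a and Igj; other names were chosen after their values were seen. A result that the rule names is not reported here. The model was also fitted with DESeq2 1.42.0, with limma-voom (limma 3.58.1), with RLE size factors, with other filters, with the L code or no covariate, with the replicate number as a block, within each sex, within the numbered titles and leaving out each library. List counts under the L code or without KI ASK1i replicate 5, and correlations in WT ASK1i or in 1 sex, were chosen after seeing the data.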

Additional observations from a re-analysis of the deposited data

Results flagged for a closer look

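In 2 of 32 combinations of gene and group, 1 library stood apart from the others of its group by Dixon's criterion; chance gives about 1 in 20. Cd79a in WT ASK1i had a gap of 0.538 of the group's range, from the highest library, replicate 5, a female with 3.56 CPM, to the next. Pax5 in KI control had a gap of 0.774 of the range, from replicate 1, the only female of the group, which held 8 of the group's 10 counts.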

How the results depend on the processing

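On control chow 5 genes were called; the number was 5 with the replicate block, 3 in males alone (Pax5 was not tested there) and 1 in females alone, where KI control has 1 library. On the ASK1i diet 7 were called, 7 with the replicate block, 4 with the L code, 3 in males, 5 in females and 5 with the numbered titles alone. Same-numbered libraries had a median r of 0.022 over 37 pairs, against -0.0057 over 363 pairs with other numbers. An r over 0.1 was found in 14 of the 37 and in 70 of the 363. The titles do not state that a shared number pairs libraries, so the numbers were not taken as pairs. The diet comparisons and the interaction called 0 of the 8 under every alternative run. Without WT ASK1i replicate 7, Cd79b on the ASK1i diet had an edgeR adjusted p of 0.0503. Over all genes, calls fell from 8466 to 5103 with the L code and to 3686 in females on control chow, and for the diet in WT the 209 calls became 365 with DESeq2, 23 with the L code and 0 in males, and 375 without KI ASK1i replicate 5. The 8 calls of the diet in KI became 37 with DESeq2.

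Fold changes reversed in sign only where the gene had not passed. For KI against WT on the ASK1i diet, Cd22 was 0.0781 with the L code. For the diet in KI, limma-voom gave -0.237 for Cd79a, 0.0111 for Pax5 and -0.190 for Blk, the L code gave 0.157 for Cd79b, and females alone gave -0.920 for Blk, -0.453 for Igj and -0.0394 for Mzb1. In the interaction the L code gave -0.163 for Pax5, males gave -0.197 for Cd22, and females gave -0.280 for Cd79b, -1.69 for Pax5 and -0.0255 for Cd22. The correlation of Igj with Cd79a was -0.187 in WT ASK1i and -0.179 in WT males. Leaving out 1 library at a time, the diet effect in KI ranged from -0.179 to 0.393 for Cd79a, -0.0461 to 0.504 for Ms4a1, -0.972 to 0.989 for Pax5 and -0.148 to 0.720 for Blk. The interaction ranged from -0.0777 to 0.586 for Cd79b, -0.176 to 1.90 for Pax5 and -0.124 to 0.212 for Cd22. The cause was not tested. Depth limits Pax5, with 0 counts in 8 of 15 KI libraries, and Mzb1, with 4 to 36 counts per library.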
